A study of Mus musculus with 22 samples.

Results

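The CD24+CD73+ stage of gamma-delta T cell development in the mouse thymus was set against the stages on either side of it, to find genes that were highest or lowest at this stage alone. It was represented by 7 of the 22 arrays of the series, 3 of Vgamma1.1+ cells and 4 of Vgamma2+ cells. The other 15 arrays were the end stages: CD24+CD73- cells (4 arrays of Vgamma1.1+ and 3 of Vgamma2+) and CD24-CD73+ cells (4 of each subset). Each sample was 1 array of total RNA from sorted thymocytes, and the mice were C57BL/6 females of 8 weeks. Cells were gated on both surface proteins and on the variable segment of their gamma chain. No group carried a treatment or a mutation. The order CD24+CD73-, CD24+CD73+, CD24-CD73+ is the maturation order usually given to these stages, and the samples were not followed in time. The labels call the replicates biological without naming separate animals. The p-values therefore reflect only how these samples vary, which may be partly technical, and precision is limited by how many arrays each group has.

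CD24 is a surface glycoprotein of immature thymocytes that is lost as they mature. CD73 is an ecto-enzyme that makes adenosine, and in mice it appears on gamma-delta thymocytes that have received a signal through their T-cell receptor and committed to the lineage. Cells with both proteins are therefore regarded as recently signalled and still immature. In the adult thymus the Vgamma2+ subset includes precursors of cells that make interleukin 17, whereas the Vgamma1.1+ subset includes cells able to make interleukin 4 and interferon gamma.

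The measure was the log2 difference between the mean of the CD24+CD73+ groups and the mean of the 4 end-stage groups, with groups weighted equally. A positive value means higher at CD24+CD73+, and a difference of 1 is a 2-fold change. This contrast also moves for a gene that only steps up early or only steps down late. A gene was therefore called a peak when CD24+CD73+ was higher than each end stage separately, and a dip when it was lower than each, with both tests past an adjusted p of 0.05. Both tests share the 7 CD24+CD73+ arrays. In a bulk sample, fewer cells carrying a transcript and less of it per cell cannot be told apart.

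The transcript of the sorted protein CD73 followed the gates. Nt5e, which encodes CD73, had log2 values of 6.77 to 8.30 with a median of 7.57 at CD24+CD73+, against 3.04 to 3.93 (median 3.64) at CD24+CD73- and 6.97 to 8.74 (median 7.48) at CD24-CD73+. The gene for CD24 was not analysed here. Cd3d and Cd3g, chains of the T-cell receptor complex, were above 10 on all 22 arrays. Cd3e, another chain, ran from 8.24 to 11.1 at CD24+CD73+, against 9.78 to 11 at CD24+CD73- and 8.34 to 10.9 at CD24-CD73+. Cd247, also a chain, ran from 6.68 to 7.5, against 7.51 to 8.34 and 6.51 to 7.34. Of 16 measured myeloid and dendritic markers, 10 were at or below the median of the table on all arrays, but the summed linear level of the 16 was 512 to 762 at CD24+CD73+, against 246 to 331 at CD24+CD73- and 770 to 1660 at CD24-CD73+. Of the 6 tested ones 2 were called higher, and Cd68 was a peak (7.81% and 2.34% of all tested genes were). Tyrobp ran from 6.19 to 7.71 at CD24+CD73+, against 4.36 to 5.83 at CD24+CD73- and 7.65 to 8.33 at CD24-CD73+. Fcer1g ran from 7.30 to 8.58, against 4.46 to 6.11 and 7.96 to 10.2. Both genes rose throughout, and both are also adaptors in the list of killer-cell receptors described below. The part of such cells in the results was not tested. Of 8 mast cell and basophil markers, 5 were at or below that median on all arrays. Some arrays stood apart within their groups. Vgamma2+ CD24+CD73+ replicates 1 and 3 were lower than replicates 2 and 4 in several genes of the T-cell receptor response described below. Values without that pair are given beside results that it moved. The pair was singled out after those low values were seen, so in such genes a larger difference without it follows from the choice. The narrowest spread of log2 values, an SD of 1.61, was on Vgamma1.1+ CD24-CD73+ replicate 1, and Vgamma2+ CD24+CD73+ replicate 3 followed with 1.71. Vgamma1.1+ CD24+CD73- replicate 1 had the highest Cd8b1 and Cd8a of all arrays.

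Of 8545 genes tested, 667 (7.81%) were higher at CD24+CD73+ than at the end stages and 550 (6.44%) were lower. Most of these were called against 1 end stage only, which does not show that the other side was unchanged. Peaks numbered 200 (2.34% of tested genes) and dips 157 (1.84%). Of the other genes called higher, 161 differed from CD24+CD73- only and 279 from CD24-CD73+ only, and of those called lower the counts were 132 and 232. A further 23 called higher and 24 called lower went one way throughout, and 4 called higher and 5 called lower passed on neither side. The smaller of the 2 side differences had a median of 0.522 among peaks and -0.435 among dips, and it reached 1 in size in 25 peaks and 9 dips. Without Vgamma2+ CD24+CD73+ replicates 1 and 3 there were 208 peaks and 156 dips, of which 170 and 125 were among those of the full set of arrays.

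**Figure D1:**
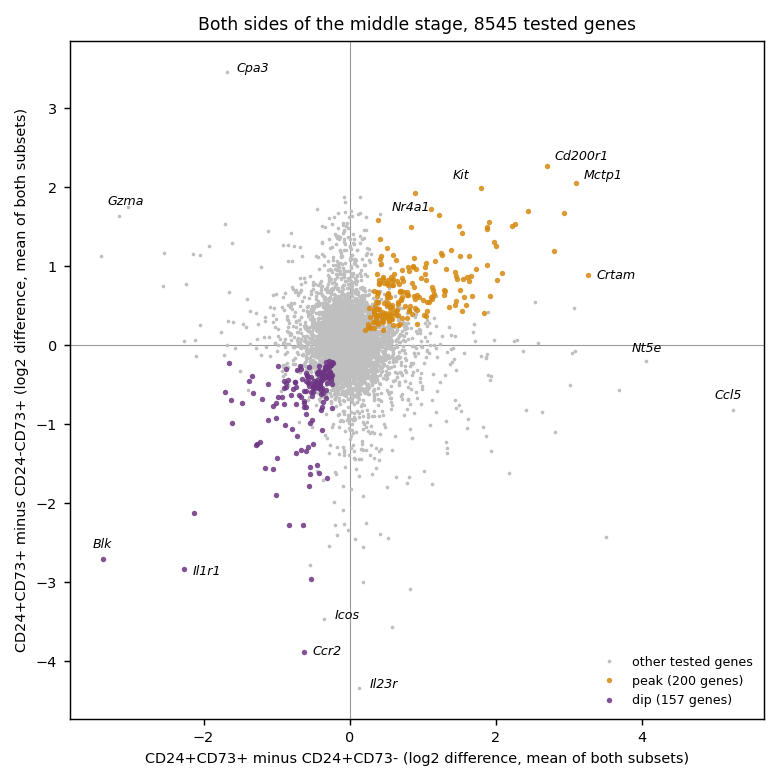
Each point is 1 of 8545 tested genes. The horizontal axis is CD24+CD73+ minus CD24+CD73- and the vertical axis CD24+CD73+ minus CD24-CD73+, both as log2 differences averaged over the subsets. The 200 peaks lie in the upper right and the 157 dips in the lower left. Ccl5 and Nt5e lie far to the right with little or opposite change on the vertical axis, and Il23r and Icos lie far down with little change on the horizontal one.

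Differences within the subsets mostly had the sign of the call. In 192 of the 200 peaks all 4 differences within a subset were positive, and in 137 of the 157 dips all 4 were negative. The calls were made on averages of these same differences, so such signs follow largely from the choice. In 55 peaks (0.644% of tested genes) and 16 dips (0.187%) each of the 4 differences passed the threshold alone. All 7 CD24+CD73+ arrays were above the other 15 for 48 genes (0.562%), of which 47 were peaks, and below them for 15 genes (0.176%), all of them dips.

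The largest peaks were Mctp1, a calcium-binding membrane protein, Cd200r1, the inhibitory receptor for CD200, and Gsta4, a glutathione transferase. Mctp1 ran from 5.95 to 6.75 (median 6.48) at CD24+CD73+, against 2.76 to 3.97 (median 3.50) at CD24+CD73- and 3.59 to 5.05 (median 4.24) at CD24-CD73+. The lowest CD24+CD73+ array was thus above the highest array of either end stage. The difference was 2.58 ± 0.12 (SE; 5.96-fold; adjusted p = 6.8e-12), and 4.16-fold on the smaller side, that of CD24-CD73+, as the mean of both subsets. Cd200r1 ran from 6.16 to 7.10 (median 6.58), against 3.11 to 4.42 (median 4.14) and 3.71 to 5.14 (median 4.30). Its groups did not overlap either, and the difference was 2.49 ± 0.16 (adjusted p = 9.06e-10). Gsta4 ran from 6.99 to 7.91 (median 7.12), against 4.08 to 4.97 (median 4.35) at CD24+CD73- and 5.12 to 6.40 (median 5.59) at CD24-CD73+. The end stages differed from each other as well in Gsta4, since the difference was 2.93 on the CD24+CD73- side and 1.67 on the CD24-CD73+ side.

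Cd200, the ligand of the receptor encoded by Cd200r1, peaked at the same stage. It ran from 6.76 to 8.34 (median 8.11) at CD24+CD73+, against 5.01 to 6.84 (median 6.59) at CD24+CD73- and 5.38 to 7.23 (median 6.43) at CD24-CD73+. The stages overlapped when subsets were pooled, because Vgamma1.1+ cells were higher than Vgamma2+ cells at every stage. Within each subset all CD24+CD73+ arrays were above all end-stage arrays. The difference was 1.73 ± 0.15 (adjusted p = 3.57e-08), and 1.99 without Vgamma2+ CD24+CD73+ replicates 1 and 3.

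Kit, the receptor tyrosine kinase for stem cell factor, which early thymic progenitors and mast cells carry, rose by similar amounts over both end stages. It ran from 7.15 to 7.81 (median 7.69) at CD24+CD73+, against 5.54 to 6.17 (median 5.75) at CD24+CD73- and 5.12 to 6.07 (median 5.67) at CD24-CD73+. No CD24+CD73+ array fell in the range of either end stage. By subset, Kit averaged 7.70 ± 0.03 in Vgamma1.1+ CD24+CD73+ cells (SD, n = 3) against 5.66 ± 0.09 and 5.74 ± 0.35 in the CD24+CD73- and CD24-CD73+ cells of that subset (n = 4 each). In Vgamma2+ cells it averaged 7.50 ± 0.30 (n = 4), against 5.95 ± 0.19 (n = 3) and 5.48 ± 0.29 (n = 4). The difference was 1.89 ± 0.11 (3.72-fold; adjusted p = 1.33e-10), 1.80 on the CD24+CD73- side and 1.99 on the CD24-CD73+ side. Of 7 tested mast cell and progenitor genes, Kit and Cd200r1 were peaks and 4 were higher in the contrast. Over all tested genes 2.34% were peaks and 7.81% were higher. Cpa3, a carboxypeptidase of mast cells, was not a peak: its log2 difference was -1.68 against CD24+CD73- and 3.46 against CD24-CD73+. The summed linear level of 8 mast cell and basophil markers was 73.9 to 130 at CD24+CD73+, against 70.5 to 87.1 and 78.6 to 163 at the end stages, with Mcpt8, Cma1, Hdc, Ms4a2 and Fcer1a at or below the median of the table on all arrays.

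**Figure D2:**
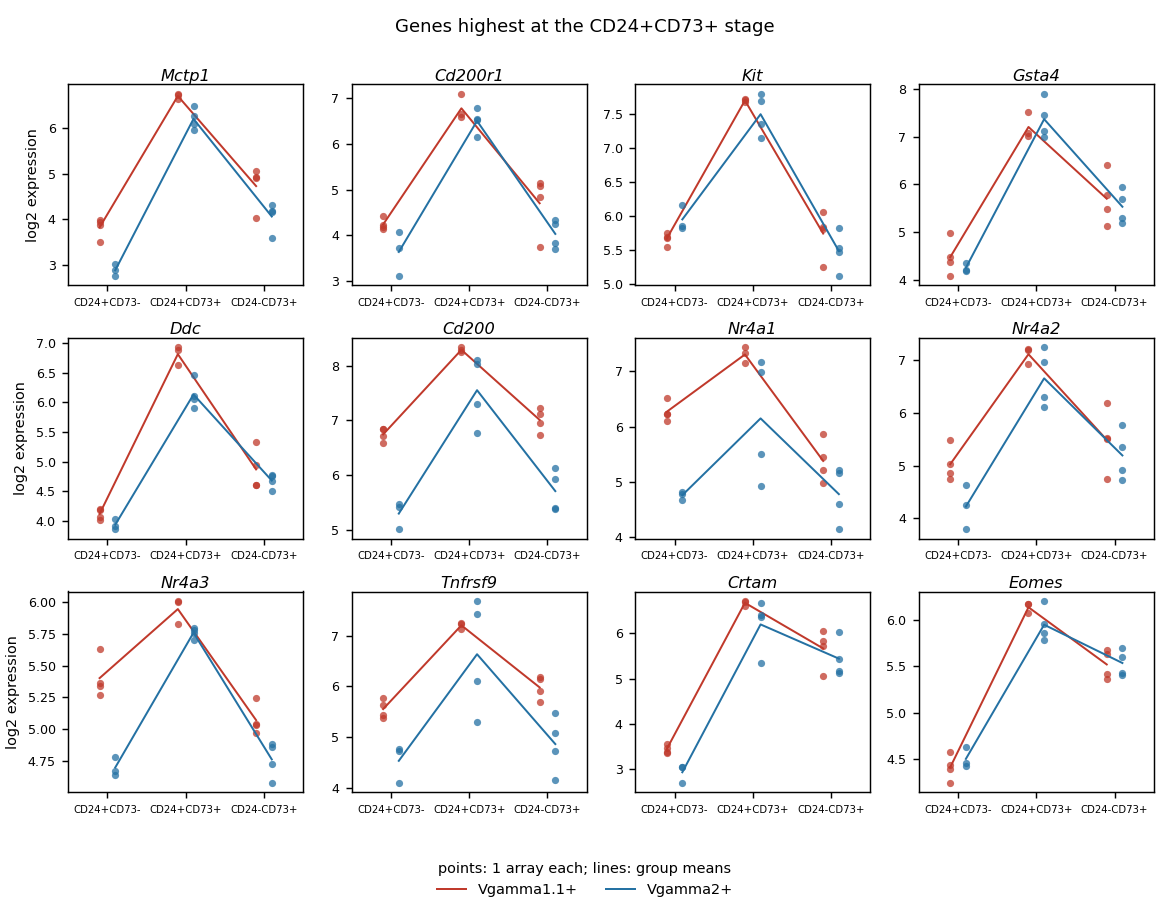
Log2 expression (vertical axes) of 12 genes by stage, with Vgamma1.1+ cells in red and Vgamma2+ cells in blue. Each point is 1 array and lines join group means. Mctp1, Cd200r1, Kit, Gsta4, Ddc, Nr4a3 and Eomes have every CD24+CD73+ array above all end-stage arrays, whereas 2 of the 4 Vgamma2+ CD24+CD73+ arrays lie low for Nr4a1, Tnfrsf9 and Cd200.

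Several peaks encode proteins better known outside the immune system. Ddc, the decarboxylase that makes dopamine and serotonin, ran from 5.91 to 6.93 at CD24+CD73+, against 3.86 to 4.21 and 4.51 to 5.33 at CD24+CD73- and CD24-CD73+. That is a difference of 2.07 ± 0.09 (adjusted p = 2.64e-12) with no overlap. Trpm1, a cation channel of melanocytes and retinal bipolar cells, ran from 5.67 to 6.35 (median 6.23), against medians of 4.33 and 4.71 and no end-stage array above 4.90. C1ql3, a secreted synaptic protein, ran from 5.98 to 7.17, against 4.38 to 4.99 and 4.94 to 5.69. Neither gene overlapped an end stage, and the differences were 1.67 ± 0.08 and 1.64 ± 0.12. Rab3ip, an exchange factor for Rab8 in vesicle traffic, was also among the peaks, at 1.48 ± 0.11. Prr5l, a protein that binds the kinase complex mTORC2, had a difference of 1.86 ± 0.13, and Pter one of 1.63 ± 0.19. Fcrl1, an Fc receptor-like protein known from B cells, had a difference of 1.99 ± 0.13. The summed level of 7 B cell markers was 201 to 362 at CD24+CD73+, against 227 to 292 and 178 to 500, and none of the 2 tested ones was called.

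Nuclear receptors of the Nr4a family, which are switched on within hours of T-cell receptor signalling, all peaked at CD24+CD73+. The 250 bases before the annotated start of each gene are shown because the family moved together and because these windows hold several copies of CGTCA (or TGACG on the other strand), the core of the cyclic AMP response element (CREB and ATF factors bind it), in capitals. They come from RefSeq annotation of GRCm38.p6 and run 5′ to 3′ on the strand of the gene: chr15:101266596-101266845 (plus strand) for Nr4a1, chr2:57124004-57124253 (minus strand) for Nr4a2 and chr4:48045055-48045304 (plus strand) for Nr4a3.
Nr4a1: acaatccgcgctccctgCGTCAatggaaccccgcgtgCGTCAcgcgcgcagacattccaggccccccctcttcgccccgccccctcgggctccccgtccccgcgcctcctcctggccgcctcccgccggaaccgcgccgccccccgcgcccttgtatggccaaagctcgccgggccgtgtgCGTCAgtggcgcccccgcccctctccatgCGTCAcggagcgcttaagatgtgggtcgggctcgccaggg
Nr4a2: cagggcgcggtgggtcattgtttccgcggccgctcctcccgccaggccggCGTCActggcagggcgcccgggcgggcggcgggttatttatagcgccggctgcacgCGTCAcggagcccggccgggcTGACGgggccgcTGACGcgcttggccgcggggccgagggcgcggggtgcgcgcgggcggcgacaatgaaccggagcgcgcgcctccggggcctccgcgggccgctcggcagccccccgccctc
Nr4a3: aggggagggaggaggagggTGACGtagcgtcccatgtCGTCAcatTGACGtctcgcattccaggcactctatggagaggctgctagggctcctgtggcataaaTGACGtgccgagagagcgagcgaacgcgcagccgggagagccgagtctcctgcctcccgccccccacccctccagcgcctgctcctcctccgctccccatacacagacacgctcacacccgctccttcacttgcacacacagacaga
Each window held 4 matches. Among all 32851 windows of 250 bases in the table, 17.8% held at least 1 match on either strand and 0.137% held 4 or more. Genes were counted by their window with the most matches. By that count 0.442% of tested genes with a window held 4 or more, and 1.86% of peaks with one, which are the 3 genes shown. A gene can have several windows, so shares of genes and shares of windows are not on the same scale. Of the 200 peaks, 161 had a window, and 25.5% of those held a match, against 31.9% of the 7013 tested genes with a window. The motif and the number of matches were chosen after the family's values were known, and a match is a description of these letters, not a site.

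Nr4a2 ran from 6.10 to 7.24 (median 6.96) at CD24+CD73+, against 3.79 to 5.48 (median 4.74) at CD24+CD73- and 4.73 to 6.18 (median 5.43) at CD24-CD73+. A single end-stage array reached into the CD24+CD73+ range, and the difference was 1.90 ± 0.19 (3.73-fold; adjusted p = 2.62e-07). Nr4a3 ran from 5.71 to 6.01 (median 5.80), against 4.64 to 5.63 (median 5.27) and 4.58 to 5.24 (median 4.92). It was the one member of the family without overlap, with a difference of 0.87 ± 0.06 (adjusted p = 4.25e-09).

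Nr4a1 split the Vgamma2+ arrays. Its values at CD24+CD73+ were 7.15, 7.44 and 7.33 in Vgamma1.1+ cells and 5.51, 7.17, 4.93 and 6.99 in Vgamma2+ cells, against 4.67 to 6.51 (median 6.10) at CD24+CD73- and 4.14 to 5.87 (median 5.18) at CD24-CD73+. Vgamma2+ replicates 1 and 3 were thus no higher than many end-stage arrays of the pooled subsets, and the other 5 arrays were above all of them. CD24+CD73- and CD24-CD73+ averaged 6.27 ± 0.18 and 5.38 ± 0.38 in Vgamma1.1+ cells (SD), against 4.76 ± 0.07 and 4.78 ± 0.51 in Vgamma2+ cells. In Vgamma1.1+ cells alone the CD24+CD73- side of Nr4a1 did not pass (1.04, adjusted p = 0.123). The difference over both subsets was 1.43 ± 0.23 (adjusted p = 0.000125). Without Vgamma2+ replicates 1 and 3 it was 1.90 (adjusted p = 4.26e-08), a gain that follows from leaving out low arrays.

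Other genes of the T-cell receptor response peaked with the Nr4a family, although most genes of the list were not called peaks. Of 32 tested members, 11 were higher in the contrast, 1 was lower and 20 were not called, and 6 were peaks, against the 7.81%, 6.44% and 2.34% of all tested genes given above. The list's median difference was 0.185, against -0.0103 over all tested genes. Tnfrsf9, the costimulatory receptor 4-1BB, ran from 5.29 to 7.69 (median 7.23), against 4.10 to 5.78 (median 5.37) and 4.17 to 6.18 (median 5.58). All CD24+CD73+ arrays but Vgamma2+ replicates 1 and 3 were above the end stages, and the difference was 1.68 ± 0.24 (adjusted p = 2.6e-05), or 2.15 without that pair. Ikzf2, which encodes the transcription factor Helios, had a difference of 1.17 ± 0.18 and ran from 9.45 to 10.73, against 9.25 to 10.26 and 8.02 to 9.53. Pdcd1, the inhibitory receptor PD-1, had a difference of 0.87 ± 0.16, and its call as a peak held in 22 of 31 alternatives.

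The remaining members of that list were not called peaks, which does not by itself show that their shape was different. Egr2, a zinc-finger factor induced by receptor signalling, ran from 5.61 to 8.00 (median 7.67), against 4.83 to 7.67 (median 6.71) and 5.71 to 8.10 (median 6.49). The stages overlapped widely, with a difference of 0.90 ± 0.29 (adjusted p = 0.037), and the CD24-CD73+ side did not pass (adjusted p = 0.178). Its adjusted p was between 0.0508 and 0.0951 in the alternatives in which its call was lost. It was 0.00109 without Vgamma2+ CD24+CD73+ replicates 1 and 3. That pair was low in this gene, and leaving it out enlarges the difference. Egr1 was called higher at 0.32, Egr3 had a difference of 0.44 that was not called (adjusted p = 0.0921), and Jun, Dusp1, Myc and Nfkbia were not called on either side. Icos, a costimulatory receptor, was the member called lower, at -1.91 ± 0.13, with values of 6.28 to 7.45 at CD24+CD73+, against 6.43 to 7.81 at CD24+CD73- and 9.76 to 10.84 at CD24-CD73+. Its step lay on the CD24-CD73+ side alone (-3.46, against -0.36 with adjusted p = 0.118 on the other).

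Transcription factors outside that list also peaked. Ahr, the ligand-activated aryl hydrocarbon receptor, ran from 7.09 to 7.53, against 5.53 to 6.45 and 5.71 to 6.44. It did not overlap an end stage and had a difference of 1.20 ± 0.07 (2.3-fold; adjusted p = 8.4e-11). Eomes, a T-box factor of natural killer and memory T cells, ran from 5.78 to 6.21, against 4.24 to 4.63 and 5.36 to 5.70. It was clear of both end stages, with a difference of 1.58 on the CD24+CD73- side and 0.51 on the CD24-CD73+ side. Ncr1 and Il5, the other measured markers of natural killer and innate lymphoid cells, were at or below the median of the table on all arrays. Hdac9, a class IIa histone deacetylase, was above both end stages on every CD24+CD73+ array, with a difference of 1.41 ± 0.13.

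Most tested killer-cell receptors were higher at CD24+CD73+ than at CD24+CD73-, but few were transient. Of 14 tested genes, 9 were higher in the contrast, 3 were lower and 2 were peaks, against 7.81%, 6.44% and 2.34% of all tested genes. Against CD24+CD73- alone, 11 were higher (7.83% of all tested genes were) and 0 lower (8.05% were). Crtam, an adhesion receptor of cytotoxic cells, was one, at 5.34 to 6.72 (median 6.60), against 2.69 to 3.55 (median 3.34) and 5.06 to 6.05 (median 5.58). The lowest CD24+CD73+ array, Vgamma2+ replicate 3, lay inside the CD24-CD73+ range, and the difference was 2.07 ± 0.16, made of 3.25 on the first side and 0.88 on the second. Slamf6, a receptor of the SLAM family, was the other. Slamf7, of the same family, had a contrast of 1.77 ± 0.16 but a CD24-CD73+ side of 0.47 that missed the threshold (adjusted p = 0.0663). Klrb1a and Klre1, lectin-like receptors, had contrasts of 1.56 and 1.47, with 3.69 and 3.04 on the CD24+CD73- side and -0.57 and -0.10 on the CD24-CD73+ side. The chemokine Ccl5 showed the same course at larger size. It ran from 8.51 to 9.86 at CD24+CD73+, against 3.55 to 4.90 and 9.70 to 10.80, so that a contrast of 2.21 ± 0.17 came from a gene highest at CD24-CD73+.

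Members of the tumour necrosis factor superfamily and cytokine receptors gave further peaks. Tnfsf8, the CD30 ligand, ran from 6.71 to 7.19 at CD24+CD73+, against 3.67 to 6.12 and 5.88 to 6.40. It cleared both end stages, with a difference of 1.42 ± 0.07 (adjusted p = 1.18e-11). With Tnfrsf9 it made up the 2 peaks of 16 tested genes in that group, of which 6 were higher and 2 were lower. Among 20 tested cytokine receptors and their SOCS inhibitors, 5 were higher and 5 were lower. Over all tested genes 2.34% were peaks, 7.81% higher and 6.44% lower. The peaks were Il6st, the shared signalling chain of interleukin 6 family receptors (0.88 ± 0.11), Il10ra (0.61 ± 0.07) and Il21r (0.47 ± 0.12). In Vgamma1.1+ cells Il10ra was not called against CD24+CD73- (0.02, adjusted p = 0.96), and the contrast of Il21r was not called (0.34, adjusted p = 0.339). The dips were Il2ra and Ifngr1. Il6st and Il21r kept the call in 21 and 20 of 31 alternatives.

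Cell-cycle genes were mostly higher in the contrast over both subsets, chiefly through the CD24-CD73+ side. Of 39 tested, 27 were higher and 0 lower (7.81% and 6.44% of all tested genes were), with a median of 0.469. On the CD24-CD73+ side 36 were higher (12.8% of all tested genes were), whereas on the CD24+CD73- side 1 was higher and 1 was lower. Nusap1, a spindle protein, ran from 7.55 to 8.26 at CD24+CD73+, against 7.25 to 8.34 at CD24+CD73- and 5.37 to 7.20 at CD24-CD73+. Top2a, a topoisomerase of dividing cells, ran from 8.76 to 9.35, against 8.72 to 9.61 and 6.53 to 7.93. In both genes the CD24+CD73+ and CD24+CD73- ranges of the pooled subsets overlapped and CD24-CD73+ lay below. In Vgamma2+ cells alone Nusap1 was called on both sides, at 0.64 (adjusted p = 0.0461) over CD24+CD73- and 2.20 over CD24-CD73+. In Vgamma1.1+ cells its CD24+CD73- side was -0.21 (adjusted p = 0.706). Ccne1, which encodes cyclin E1, was the single peak of the list, at 0.37 (adjusted p = 0.0157) on the CD24+CD73- side and 0.91 on the CD24-CD73+ side. In Vgamma1.1+ cells its CD24+CD73- side was 0.18 (adjusted p = 0.618) and its contrast 0.45 (adjusted p = 0.0526), neither of them called.

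Blk showed the deepest dip. It encodes a Src-family kinase that mouse gamma-delta cells need to make interleukin 17. Values ran from 3.98 to 5.03 (median 4.58) at CD24+CD73+, against 7.25 to 8.90 (median 7.65) at CD24+CD73- and 5.59 to 9.27 (median 6.77) at CD24-CD73+. Every CD24+CD73+ array was below every end-stage array. In Vgamma1.1+ cells Blk averaged 4.26 ± 0.26 (SD, n = 3) against 7.39 ± 0.19 and 5.89 ± 0.32 (n = 4 each), and in Vgamma2+ cells between 4.58 and 5.03 on 4 arrays against means of 8.42 ± 0.43 (n = 3) and 8.56 ± 0.87 (n = 4). The difference was -3.04 ± 0.19 (8.21-fold lower; adjusted p = 4.34e-10). The smaller side, that of CD24-CD73+, was 6.5-fold lower as the mean of both subsets, and in Vgamma1.1+ cells its log2 difference was -1.64.

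Genes of the interleukin 17 programme dipped with Blk. Of 15 tested, 12 were lower in the contrast, 1 was higher and 7 were dips, against 6.44%, 7.81% and 1.84% of all tested genes, and the median difference was -1.16. Il1r1, the interleukin 1 receptor, ran from 3.76 to 4.79 (median 4.11) at CD24+CD73+, against 5.88 to 6.72 (median 6.34) and 4.42 to 9.35 (median 7.17). Within each subset every CD24+CD73+ array was below every end-stage array, and the difference over both was -2.55 ± 0.15 (adjusted p = 1.68e-10). Sox13, a transcription factor of the gamma-delta lineage, ran from 5.13 to 5.61, against 6.50 to 7.55 and 5.46 to 6.63, a difference of -1.16 ± 0.10. Rora, a nuclear receptor of cells that make interleukin 17, had a difference of -0.91 ± 0.09, with -1.06 and -0.77 on the first and second sides. Tmem176a and Tmem176b, membrane channel proteins, were below all end-stage arrays on all 7 CD24+CD73+ arrays, but the dips were shallow against CD24+CD73- (-0.54 and -0.64) and deep against CD24-CD73+ (-2.96 and -2.27).

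Not all members of the programme were called dips. Il23r, a subunit of the interleukin 23 receptor, had a median of 2.29 and at most 3.01 at CD24+CD73+, against 2.14 to 2.61 at CD24+CD73- and 3.33 to 9.57 at CD24-CD73+. Its contrast (4.3-fold lower) came from the CD24-CD73+ side (-4.33), and the other side was 0.12 (adjusted p = 0.775). Ccr6, a chemokine receptor, had 0.18 on the CD24+CD73- side and -2.99 on the other. At CD24+CD73- and CD24+CD73+ both genes were below the median of the table (4.55) on all arrays. They entered the test through CD24-CD73+ arrays alone, and a fall from so low a level at CD24+CD73- could hardly be seen. Etv5, an ETS factor, fell throughout (-3.04 and 1.74), Il7r, the interleukin 7 receptor, rose throughout (1.33 and -1.30), and Sox4 was the gene called higher, at 0.70.

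**Figure D3:**
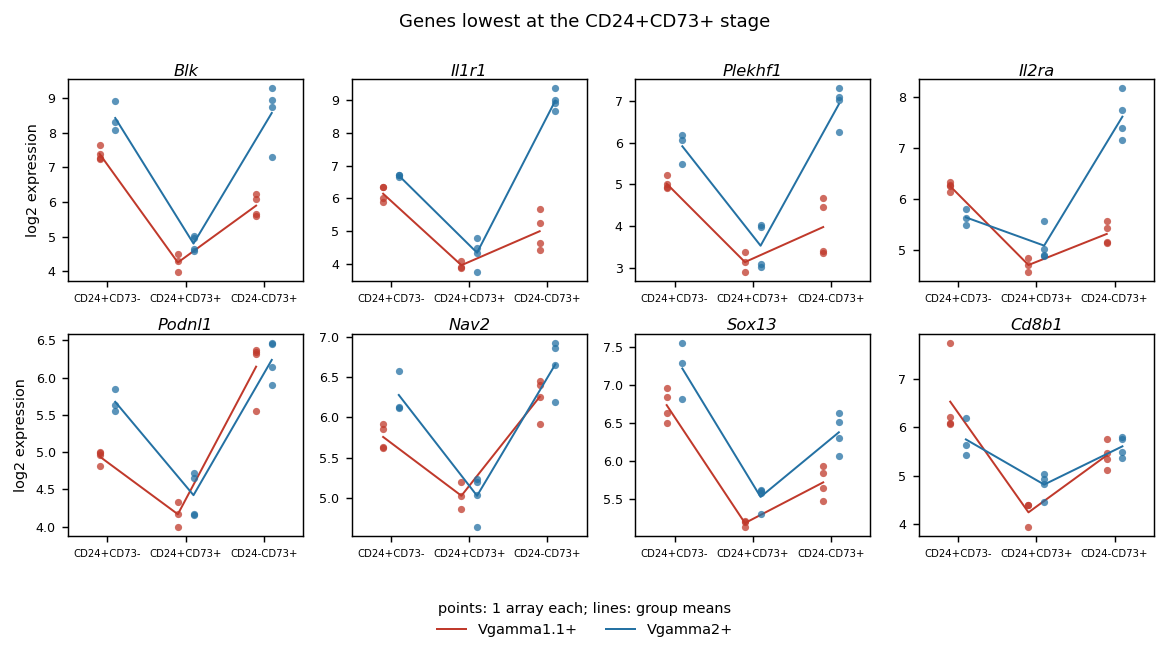
Log2 expression (vertical axes) of 8 genes by stage, with Vgamma1.1+ cells in red and Vgamma2+ cells in blue. Each point is 1 array and lines join group means. Blk, Podnl1, Nav2 and Cd8b1 have every CD24+CD73+ array below all end-stage arrays, and the CD24-CD73+ side of Il1r1 and Plekhf1 is steeper in Vgamma2+ cells.

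Early T cell genes gave 3 dips among 20 tested, with 1 higher and 6 lower in the contrast, beside 1.84%, 7.81% and 6.44% of all tested genes. Il2ra, the alpha chain of the interleukin 2 receptor (CD25), ran from 4.57 to 5.56 (median 4.87) at CD24+CD73+, against 5.50 to 6.33 (median 6.14) and 5.13 to 8.17 (median 6.36). The difference was -1.31 ± 0.12 (adjusted p = 5.63e-08). As the mean of both subsets it was -1.57 on the CD24-CD73+ side and -1.05 on the CD24+CD73- side. The order of the sides differed by subset. In Vgamma1.1+ cells they were -0.61 and -1.55. In Vgamma2+ cells they were -2.53 and -0.55, and the latter was not called (adjusted p = 0.0677). Cd8b1, the CD8 beta chain, ran from 3.94 to 5.04 (median 4.46), against 5.42 to 7.74 (median 6.09) and 5.11 to 5.81 (median 5.48). No array overlapped, and the difference was -1.30 ± 0.18 (adjusted p = 2.06e-05). Cd8a had a difference of -0.79 ± 0.20 (adjusted p = 0.00965), and it kept the call as a dip in 13 of 30 alternatives. In Vgamma2+ cells its contrast was -0.34 and was not called (adjusted p = 0.46). The summed linear level of 5 markers of alpha-beta lineage thymocytes, which include Cd8a and Cd8b1, was 78.5 to 126 at CD24+CD73+, against 109 to 438 at CD24+CD73- and 116 to 146 at CD24-CD73+, and Rag2 was at or below the median of the table on all arrays. The part of such cells in the Cd8 values was not tested. Dntt, the enzyme that adds bases during receptor gene assembly, was no dip: it ran from 4.51 to 6.71, against 8.67 to 9.55 and 3.64 to 6.67, falling throughout.

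Dips outside these lists included cell-surface, adhesion and cytoskeletal genes. Podnl1, a leucine-rich matrix protein, ran from 4.00 to 4.72, against 4.81 to 5.84 and 5.55 to 6.46, and Nav2, a cytoskeletal protein, from 4.64 to 5.24, against 5.62 to 6.58 and 5.92 to 6.92. Neither overlapped, and the differences were -1.46 ± 0.12 and -1.21 ± 0.11. Tiam1, which activates the GTPase Rac, also lay below every end-stage array, at 4.77 to 5.18, against 5.68 to 6.34 and 5.40 to 6.43. Plekhf1 had a difference of -2.12 ± 0.19, the sialyltransferase gene St3gal6 -1.55 ± 0.13, the activin receptor Acvr2a -1.36 ± 0.13 and Itgae, the integrin chain CD103, -1.09 ± 0.09. Ramp1, a subunit of the receptor for calcitonin gene-related peptide, ran from 6.22 to 8.89, against 8.48 to 9.53 and 7.29 to 9.63. Its difference of -0.96 ± 0.27 (adjusted p = 0.0176) was -0.54 without Vgamma2+ CD24+CD73+ replicates 1 and 3, where it was not called (adjusted p = 0.154).

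**Figure D4:**
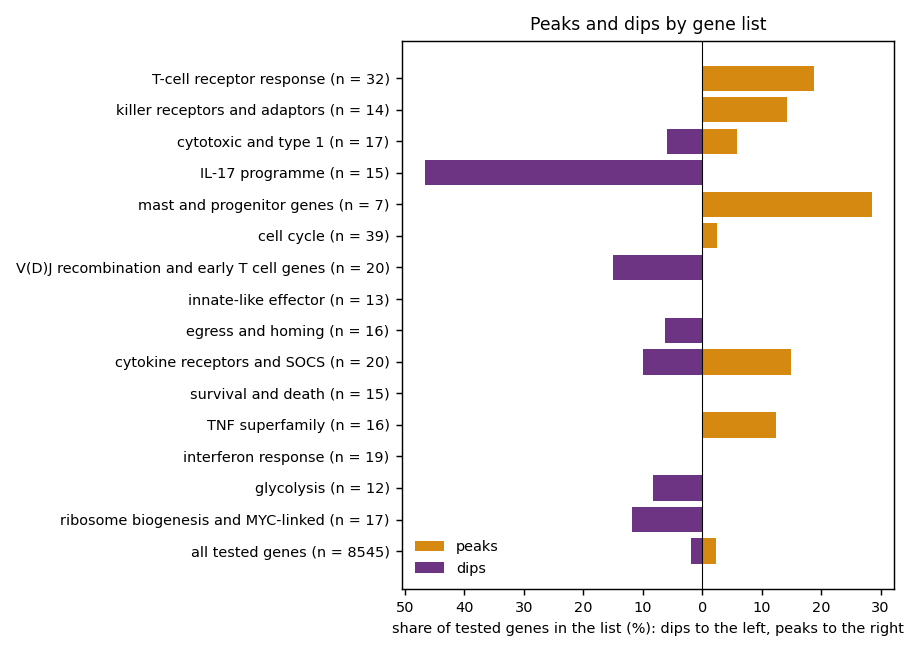
Share of tested genes that were peaks (to the right) or dips (to the left) in each of 15 gene lists and over all 8545 tested genes, in percent of the tested genes of the list, with the number tested in brackets. The interleukin 17 list has 7 dips among 15 genes and the T-cell receptor response list 6 peaks among 32, whereas cell cycle has 1 peak among 39 and survival, interferon and innate-like effector lists have none of either.

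Metabolic and survival genes are read against 7.81% higher, 6.44% lower, 2.34% peaks and 1.84% dips over all tested genes. Of 17 tested ribosome biogenesis and MYC-linked genes, 3 were lower and 0 higher, and the dips were Srm, spermidine synthase (-0.49 ± 0.10), and Gnl3, the nucleolar protein nucleostemin (-0.36 ± 0.08). In Vgamma2+ cells alone neither contrast was called, at -0.40 for Srm (adjusted p = 0.0551) and -0.12 for Gnl3 (adjusted p = 0.525). Of 12 glycolysis genes 1 was called, the dip Pdk1, a kinase that restrains pyruvate dehydrogenase, at 5.18 to 5.55, against 5.64 to 6.09 and 5.59 to 6.10. Of 15 survival and death genes 1 was called, lower, and of 19 interferon response genes 3 were called, all lower. Egress and homing genes gave 3 higher and 3 lower among 16, with Itgae as the one dip, and innate-like effector genes 2 higher and 4 lower among 13, with no peak or dip. Of 17 cytotoxic and type 1 genes, 4 were higher and 5 lower, with Eomes as the peak and Il12rb1, a chain of the interleukin 12 receptor, as the dip (-0.61 ± 0.08). In Vgamma1.1+ cells the CD24-CD73+ side of Il12rb1 was -0.16 and was not called (adjusted p = 0.484).

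The same contrast was run in each subset. In Vgamma1.1+ cells 266 genes (3.11%) were higher and 165 (1.93%) lower at CD24+CD73+ than at the end stages, and in Vgamma2+ cells 572 (6.69%) were higher and 643 (7.52%) lower. Without Vgamma2+ CD24+CD73+ replicates 1 and 3, 312 genes were lower in Vgamma2+ cells. Without replicate 1, 2 or 3 of the Vgamma1.1+ CD24+CD73+ arrays the Vgamma1.1+ counts were 131 and 95, 132 and 102, and 151 and 88. These counts do not show that the subsets differ, which was tested gene by gene. The Vgamma1.1+ contrast was above the Vgamma2+ one in 58 genes (0.679%) and below it in 43 (0.503%), 1.18% in all. Peaks were of similar median size, 0.658 in Vgamma1.1+ cells and 0.741 in Vgamma2+ cells, and 4 of the 200 peaks were called in this test, all larger in Vgamma2+ cells. Dips had a median of -0.406 in Vgamma1.1+ cells and -0.659 in Vgamma2+ cells, and 23 of the 157 were called, 22 of them deeper in Vgamma2+ cells. The counts of this test depended on single arrays: they ran down to 31 and 22 without Vgamma1.1+ CD24+CD73+ replicate 3 and up to 114 and 119 without Vgamma2+ CD24+CD73+ replicate 2. Without Vgamma2+ CD24+CD73+ replicates 1 and 3 they were 38 and 22.

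**Figure D5:**
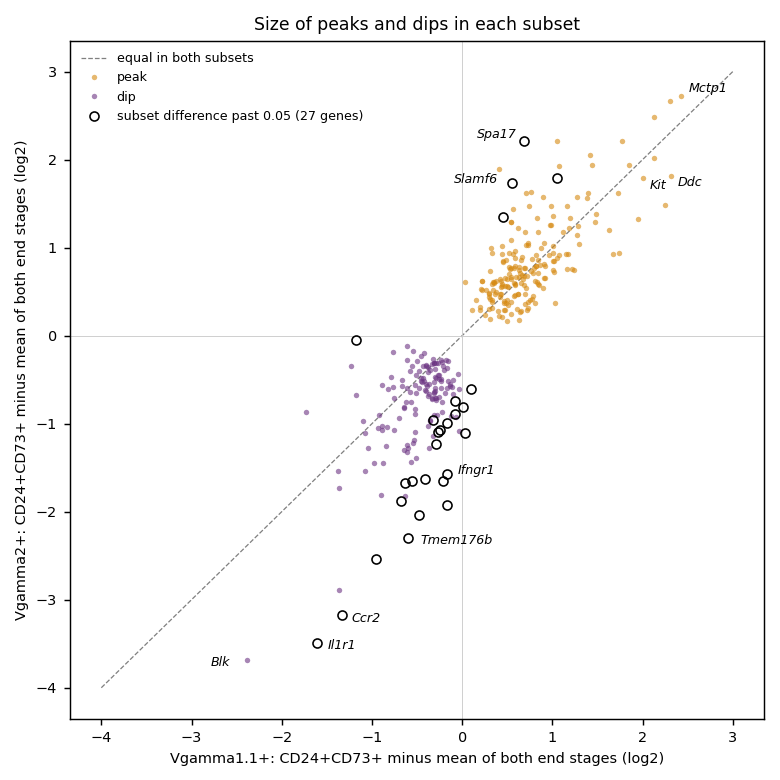
Each point is 1 of the 200 peaks or 157 dips. The horizontal axis is CD24+CD73+ minus the mean of both end stages in Vgamma1.1+ cells and the vertical axis the same in Vgamma2+ cells, as log2 differences, and circles mark the 27 genes past 0.05 in the subset difference. Of the circled dips 22 lie below the diagonal, and Mctp1, Kit and Ddc lie near it.

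Most peaks were not called in the subset difference, which does not show that they were equal in size. Pter had 1.05 in Vgamma1.1+ cells and 2.21 in Vgamma2+ cells (-1.15 ± 0.38, adjusted p = 0.144). Prr5l had 2.24 and 1.48 (0.76 ± 0.26, adjusted p = 0.169). Mctp1 had 2.42 in Vgamma1.1+ cells and 2.73 in Vgamma2+ cells, a difference of -0.30 ± 0.25 (adjusted p = 0.551), Ddc had 2.31 and 1.82 (0.49 ± 0.19, adjusted p = 0.212), and Ahr 1.19 and 1.22 (-0.03 ± 0.14). Spa17, a sperm protein gene, was a larger peak in Vgamma2+ cells. It averaged 7.13 ± 0.30 at Vgamma1.1+ CD24+CD73+ against 6.16 ± 0.20 and 6.72 ± 0.15 at CD24+CD73- and CD24-CD73+, and 7.18 ± 0.47 at Vgamma2+ CD24+CD73+ against 4.39 ± 0.24 and 5.55 ± 0.13. The subsets met at CD24+CD73+ and lay apart at the end stages, and the subset difference was -1.52 ± 0.24 (adjusted p = 0.00148). Slamf6 followed the same course, with 8.66 ± 0.09 against 7.88 ± 0.11 and 8.35 ± 0.28 in Vgamma1.1+ cells, and 8.51 ± 0.23 against 6.65 ± 0.19 and 6.90 ± 0.29 in Vgamma2+ cells. Its subset difference was -1.19 ± 0.20 (adjusted p = 0.00256), and that of Tnfsf8 was -0.74 ± 0.14 (adjusted p = 0.00785).

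Several dips were chiefly those of Vgamma2+ cells. Ccr2, a chemokine receptor, averaged 4.86 ± 0.09 at Vgamma1.1+ CD24+CD73+ against 4.85 ± 0.14 and 7.53 ± 0.11, and 4.20 ± 0.22 at Vgamma2+ CD24+CD73+ against 5.46 ± 0.15 and 9.28 ± 0.27. In Vgamma1.1+ cells it did not differ between CD24+CD73+ and CD24+CD73- beyond the spread (0.01, adjusted p = 0.99), so the dip over both subsets came from Vgamma2+ cells, and the subset difference was 1.84 ± 0.17 (adjusted p = 3.01e-06). Ifngr1, a chain of the interferon gamma receptor, averaged 7.72 ± 0.09 against 8.40 ± 0.10 and 7.37 ± 0.25 in Vgamma1.1+ cells, and 7.79 ± 0.10 against 9.12 ± 0.20 and 9.60 ± 0.05 in Vgamma2+ cells. In Vgamma1.1+ cells its CD24-CD73+ side was 0.34 (adjusted p = 0.0804), and the subset difference was 1.40 ± 0.15 (adjusted p = 1.78e-05). Igf1r, the receptor for insulin-like growth factor 1, and Gpr132, a lipid-sensing receptor, had subset differences of 1.20 ± 0.23 and 1.56 ± 0.25, and their CD24-CD73+ sides in Vgamma1.1+ cells were -0.16 (adjusted p = 0.63) and -0.11 (adjusted p = 0.765). Without Vgamma2+ CD24+CD73+ replicates 1 and 3 the subset difference of Igf1r was 1.13 and was not called (adjusted p = 0.0641). Il1r1 dipped in both subsets, with -1.61 in Vgamma1.1+ cells and -3.49 in Vgamma2+ cells, a difference of 1.89 ± 0.30 (adjusted p = 0.00155).

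The largest subset differences were late ones. Il23r, at 2.28 ± 0.34, averaged 4.37 ± 0.70 at Vgamma1.1+ CD24-CD73+ and 9.27 ± 0.28 at Vgamma2+ CD24-CD73+, against 2.31 to 2.59 in the other groups. Fabp7, a fatty acid-binding protein, had -2.33 ± 0.30 and was high only at Vgamma1.1+ CD24-CD73+, at 7.38 ± 0.55 (n = 4). Cd40lg, the CD40 ligand, had -2.30 ± 0.27: it averaged 6.26 ± 0.08 at Vgamma1.1+ CD24+CD73+ against 4.10 ± 0.25 and 8.93 ± 0.17, and 6.56 ± 0.12 at Vgamma2+ CD24+CD73+ against 3.46 ± 0.45 and 5.57 ± 0.52. In Vgamma2+ cells alone Cd40lg was thus highest at CD24+CD73+, by 3.10 and 0.98 over the end stages. Il4 and Il21, cytokine genes, had subset differences of -2.13 ± 0.28 and -1.48 ± 0.20.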

How the data were processed

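Sorted gamma-delta thymocytes were measured on 22 arrays, 1 per sample. The deposited values are log2 expression values per probe set, made with RMA in oligo per the submitters' processing notes, whose versions the sources used here do not give. This method corrects background, normalises the arrays and summarises probes, which damps changes of dim transcripts. The SD of log2 values still differed between arrays, from 1.61 to 2.09. Of 16755 probe sets, 14996 listed 1 symbol, 1019 several and 740 none. Probe sets with 1 symbol gave 14860 genes (the probe set of highest mean represented a gene), of which 14805 matched RefSeq by identifier. A gene was tested if it exceeded the median of the table (4.55) on at least 3 arrays, which left 8545.

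The 6 group means were estimated from all 22 arrays at once in limma 3.58.1 (R 4.3.3; 16 residual degrees of freedom, prior 4.47), with two-sided tests and Benjamini-Hochberg adjustment over all tested genes. Errors of differences are standard errors moderated by empirical Bayes. On simulated data with 8545 genes, 94% of peaks and 98% of dips of size 1 were recovered, and 0% of lasting early steps of that size were called either. The simulated shifts were equal in both subsets and on both sides, and noise was independent between arrays. In the data the smaller side had a median of 0.522 among peaks and -0.435 among dips. The recovery rates therefore do not describe most of these calls. The same numbers in the labels did not pair samples: deviations from group means correlated at -0.163 on average over 51 same-numbered pairs and at 0.0558 over 150 others.

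The comparison, gene lists and members were chosen with earlier results of these data known. Named genes were the 15 peaks and 15 dips with the largest smaller side, the 10 highest and 10 lowest contrasts, the 6 largest subset differences in each direction and the 8 largest members of each list, predicted genes left out. Ahr, Hdac9, Ccne1 and Rora, the list members given with values beyond the 8 largest, and the array pair left out were chosen after values had been seen. Alternatives were a block on replicate number, a stricter filter (5.46, the 65th percentile) or none, trend and robust options, array weights, cyclic loess, arrays of narrow spread left out, array spread as a covariate, arrays weighted equally and each array left out.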

Additional observations from a re-analysis of the deposited data

Results flagged for a closer look

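Groups of 3 arrays were too small to be examined for single arrays that stood apart. In the groups of 4, Dixon's test marked 24 of 336 combinations of a named gene and a group, and chance marks about 1 in 20. Vgamma1.1+ CD24-CD73+ replicate 1, the array of narrowest spread, was lower than the other arrays of its group in Ccne1 (5.656), Hdac9 (4.812), Mctp1 (4.03), Nt5e (7.45), Podnl1 (5.555), Slamf7 (5.311), Socs2 (2.992), Srm (5.613) and Top2a (7.336), and higher in Ccr6 (4.137) and Lingo4 (5.623). Vgamma1.1+ CD24+CD73- replicate 1 was higher in Cd8a (7.059), Cd8b1 (7.738), Gata3 (9.31) and Il6st (8.218) and lower in St3gal6 (5.252). At CD24+CD73+, Vgamma2+ replicate 2 was low in Gnl3 (7.1) and Vgamma2+ replicate 4 in Sox13 (5.299). The others were Dntt (4.814) in Vgamma1.1+ CD24-CD73+ replicate 2, Tmem176b (5.801) in replicate 4 of that group, Gzma (9.848) and Icos (6.432) in Vgamma1.1+ CD24+CD73- replicates 3 and 4, and Il18r1 (9.474) and Srm (5.84) in Vgamma2+ CD24-CD73+ replicates 1 and 2. All are log2 values.

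The contrast differed between the subsets, by the test of the difference itself, in 19 of the named genes. As Vgamma1.1+ minus Vgamma2+ on the log2 scale, the dips gave Il1r1 1.89, Ccr2 1.84, Tmem176b 1.70, Tmem176a 1.59, Gpr132 1.56, Ifngr1 1.40 and Igf1r 1.20, and the peaks Spa17 -1.52, Slamf6 -1.19 and Tnfsf8 -0.74. Genes that were neither gave Il23r 2.28, Ccr6 1.91, Abi3bp 1.89, Pxdc1 1.81, Fabp7 -2.33, Cd40lg -2.30, Il4 -2.13, Casp4 -1.52 and Il21 -1.48. Igf1r and Casp4 were not called without Vgamma2+ CD24+CD73+ replicates 1 and 3 (adjusted p = 0.0641 and 0.097). Among the dips called in this test, Inpp4b, singled out after its value was seen, was the one deeper in Vgamma1.1+ cells, at -1.13.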

How the results depend on the processing

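The genes examined under the alternatives all kept their direction, and 2975 of the gene results stayed on the same side of the threshold while 44 lost the call (Egr2, Ramp1, the subset differences of Casp4, Igf1r and Tnfsf8 and, under equal weights for arrays, other genes such as Ccl5, Il23r and Slamf7). Of 57 named peaks and dips, 51 kept that call throughout; Pdcd1, Il6st, Il21r, Ccne1, Cd8a and Ramp1 did not. With the replicate number as a block there were 173 genes higher in Vgamma1.1+ cells, and 29 higher and 22 lower in the subset difference, and Tnfsf8 lost that call (adjusted p = 0.054); 0 of 22 arrays correlated best with their own number. The stricter filter gave 28 genes lower in the subset difference, cyclic loess 93 and 107 in the 2 directions, and the fit without the 2 arrays of narrowest spread 89 and 85. Array weights, whose estimate stopped before convergence, gave 1013 genes higher and 990 lower in the contrast, 1087 and 1255 against CD24+CD73-, 1100 and 1009 in Vgamma1.1+ cells, 433 and 424 in the subset difference, and 319 peaks and 302 dips, sharing 196 and 153 with the main ones. With array spread as a covariate there were 867 genes lower in the contrast, 1013 higher against CD24+CD73-, 262 lower in Vgamma1.1+ cells, 868 higher in Vgamma2+ cells, and 102 and 125 in the subset difference. The cause of these moves was not tested. Equal weights for arrays gave 253 higher and 174 lower; there the difference between the end stages enters the spread by construction. Without Vgamma2+ CD24+CD73+ replicates 1 and 3, 312 genes were lower in Vgamma2+ cells and 38 and 22 were called in the subset difference, where Igf1r (1.13, adjusted p = 0.0641) and Casp4 (-1.22, adjusted p = 0.097) lost the call; Casp4 also lost it without Vgamma1.1+ CD24+CD73+ replicate 3 (-1.33, adjusted p = 0.0632).

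Leaving out 1 array at a time gave 542 to 733 higher and 422 to 749 lower in the contrast, 566 to 800 and 539 to 883 against CD24+CD73-, 909 to 1190 and 747 to 1111 against CD24-CD73+, 131 to 297 and 88 to 217 in Vgamma1.1+ cells, 467 to 688 and 433 to 869 in Vgamma2+ cells, 31 to 114 and 22 to 119 in the subset difference, 164 to 218 peaks and 120 to 206 dips. Counts moved by over 1.5 times without Vgamma1.1+ CD24+CD73+ replicate 1, 2 or 3 (131 and 95, 132 and 102, 151 and 88 in that subset; 32 and 27, 37 higher, 31 and 22 in the subset difference), and in the subset difference also without Vgamma1.1+ CD24-CD73+ replicate 1 (104 and 91), Vgamma2+ CD24-CD73+ replicate 1 (109 and 69), and Vgamma2+ CD24+CD73+ replicate 1 (26 lower) or 2 (114 and 119). The deposited values hold no background signal, so how far dim genes lie above it was not tested.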

Other observations

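Some genes of protein folding in the endoplasmic reticulum were lower at CD24+CD73+ than at both end stages, in a list written after values of some members had been seen and therefore given as a description. Of 26 tested, 8 were dips, 17 were not called in the contrast, 9 were lower in the contrast and 0 were higher, against 1.84%, 6.44% and 7.81% of all tested genes, and the median was -0.255. Ero1a, the oxidase that restores disulfide isomerases, had a difference of -0.97, Nucb2 one of -0.96 and Sdf2l1, a chaperone component, one of -0.73. Manf and Pdia3, a folding factor and a disulfide isomerase, had -0.51 and -0.46. The regulators Xbp1, Atf4 and Ddit3 were not called on either side, with contrasts of -0.20, -0.05 and -0.14.

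Genes of the circadian clock gave 4 dips among 12 tested (1.84% of all tested genes were dips), again in a list written after values had been seen. Nr1d2, which encodes REV-ERB beta, had a contrast of -1.16, Hlf one of -1.05, Clock one of -0.72 and Cry1 one of -0.35. In all 4 the CD24-CD73+ side was the larger (-1.78, -1.54, -1.07 and -0.42). Dbp and Tef were not called on either side, and Per1 differed from CD24+CD73- alone, by 0.22. The labels do not give the hour at which tissue was taken.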
